A study of Mus musculus with 9 samples.

Results

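The globin and red cell genes examined here are 7 of the 56691 genes in a count table from mouse testis: the adult alpha-globins Hba-a1 and Hba-a2, the adult beta-globins Hbb-bs and Hbb-bt, the heme synthesis enzymes Alas2 and Fech, and Slc4a1, the anion exchanger of the red cell membrane. They were chosen by symbol, as a gauge of blood in each library, and all 7 were found. RNA came from testes on postnatal day 7, captured with oligo(dT) beads, in 3 groups of 3 libraries: wild type, a group titled GM1142KO (Gm1142-/-), called GM1142KO-labelled here, and a double knockout of Gm1142 and Gm4779 (Gm1142-/- Gm4779-/-). The labels give no strain, allele, clone, litter or pooling of animals, and nothing in them says that replicates came from separate animals. The p-values therefore reflect library-to-library spread, which may be technical.

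Both targeted genes had 0 counts in the 3 double knockout libraries. Gm1142, named 8030474K03Rik in the reference, had 41, 50 and 56 counts in wild type and 46, 50 and 65 in the GM1142KO-labelled libraries, so the label of the latter was not borne out at the level of whole-gene counts. Such counts cannot show a small deletion, and the allele is not given, so they do not decide whether the label is right. Totals ran from 4370124 to 8359594 counts, the highest in double knockout replicate 2. Mitochondrial genes took 29.4% to 32.7% of counts in wild type, 32.5% to 38.9% in the GM1142KO-labelled libraries and 27.1% to 32.9% in the double knockout. Testis markers were present in every library, with means in wild type, GM1142KO-labelled libraries and double knockout of 245, 337 and 239 CPM (counts per 1000000 counts of scaled library size) of Wt1, a Sertoli cell transcription factor, and of 195, 124 and 348 CPM of Dazl, a germ cell RNA-binding protein. Their tests are given with the other cell markers.

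Hemoglobin, the oxygen carrier of red cells, is a tetramer of alpha and beta chains that each hold a heme group. Heme is built by a chain of enzymes that begins with 5-aminolevulinate synthase, for which red cell precursors use Alas2 and most other tissues use Alas1, and ends with ferrochelatase, Fech, which inserts iron into protoporphyrin. Globin mRNA dominates the RNA of late red cell precursors and young red cells. Fech and the middle enzymes of the pathway are made in nearly all cells, because all cells need heme for respiration.

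The members of each globin pair are near-identical copies, which limits what a count per copy means. In GENCODE M21 (GRCm38), Hba-a1 spans chr11:32283511-32284465 and Hba-a2 spans chr11:32296489-32297298, both on the plus strand. Hbb-bs spans chr7:103826534-103828096 and Hbb-bt spans chr7:103812524-103813996, both on the minus strand. The files themselves are on build mm39, so these positions serve as reference only. The coding sequences of Hba-a1 and Hba-a2, 429 bases each, differ at 1 base, C381T, counted from 1 at the A of the start codon. Those of Hbb-bs and Hbb-bt, 444 bases each, also differ at 1 base, C417T. The windows of 40 bases around these positions, all in exon 3, are shown because the capital letter is the only coding base that separates the members of a pair.
Hba-a1, chr11:32284324-32284363: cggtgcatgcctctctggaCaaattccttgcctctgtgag
Hba-a2, chr11:32297141-32297180: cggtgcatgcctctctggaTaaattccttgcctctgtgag
Hbb-bs, chr7:103826672-103826711: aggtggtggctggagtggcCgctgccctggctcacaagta
Hbb-bt, chr7:103812663-103812702: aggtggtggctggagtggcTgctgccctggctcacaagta

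The untranslated ends supply the rest of the difference. Of all stretches of 100 bases in the main transcript, 56.5% in Hba-a1, 74.5% in Hba-a2, 62.6% in Hbb-bs and 54.8% in Hbb-bt also occur in the partner, and no stretch was shared with any gene but the partner. Neither the read length nor the handling of reads that match both copies is stated in the labels or processing notes. The split of counts within each pair is therefore uncertain, while the sum over a pair does not depend on how such reads were divided, unless they were dropped.

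The promoters of the globin copies were also compared, as a description. Whether they bear on how the counts of the copies moved across libraries was not tested. RefSeq (GRCm38.p6) gives an upstream sequence for 5 of the 7 genes. The RefSeq starts lie inside the GENCODE spans given above, so part of each window belongs to a GENCODE gene model: 161 of 250 bases for Hba-a1, 3 for Hba-a2, 168 for Hbb-bs and 73 for Hbb-bt. The 250 bases before the RefSeq start are the same in Hba-a1 and Hba-a2 at 247 of 247 positions once shifted by 3 bases, so that of Hba-a2 is shown. Those of Hbb-bs and Hbb-bt match at 127 of 249 positions, or 51%, in the best ungapped placement with a shift of up to 5 bases. Capitals mark 4 motifs searched on both strands: GATA sites, written AGATAA or, with another first letter, TGATAA, and the same with another last letter, AGATAG and also TGATAG; the CACCC box bound by erythroid factors, CCACACCC or with a middle G instead CCACGCCC; the CCAAT box; and the TATA box as TATAAA. Adjacent or overlapping matches run together in capitals.
Hba-a2, chr11:32296242-32296491, plus strand: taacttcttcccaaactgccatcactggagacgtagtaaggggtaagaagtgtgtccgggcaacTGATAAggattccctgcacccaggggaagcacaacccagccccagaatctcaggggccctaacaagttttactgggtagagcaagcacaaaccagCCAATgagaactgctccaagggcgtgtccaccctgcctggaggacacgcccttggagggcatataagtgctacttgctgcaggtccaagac
Hbb-bs, chr7:103827929-103828178, minus strand: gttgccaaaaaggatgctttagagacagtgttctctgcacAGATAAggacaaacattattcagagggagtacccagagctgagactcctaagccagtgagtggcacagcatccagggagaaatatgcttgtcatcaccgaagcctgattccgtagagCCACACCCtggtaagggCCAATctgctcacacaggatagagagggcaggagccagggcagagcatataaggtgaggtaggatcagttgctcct
Hbb-bt, chr7:103813924-103814173, minus strand: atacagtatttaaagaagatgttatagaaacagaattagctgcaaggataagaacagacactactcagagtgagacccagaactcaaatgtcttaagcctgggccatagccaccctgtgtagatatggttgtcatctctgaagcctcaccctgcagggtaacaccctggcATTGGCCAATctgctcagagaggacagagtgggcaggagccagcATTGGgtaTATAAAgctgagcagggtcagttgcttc

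Hba-a2 held a GATA site 186 bases before the RefSeq start and CCAAT 91 bases before it. Hbb-bs held a GATA site at 210 bases, the CACCC box at 93 and CCAAT at 76. In Hbb-bt none of the longer GATA or CACCC strings searched occurred, although the shorter runs gata and caccc did. Hbb-bt held CCAAT 3 times, at 80, 75 and 36 bases, and TATAAA at 28. Hba-a2 and Hbb-bs lacked the full string TATAAA but held the shorter run tataa. Hba-a2 also held caccc without the longer CACCC string. Of all 32851 promoter windows of this length, 26.5% hold a GATA site, 7.72% the CACCC box, 33.8% CCAAT and 12.4% TATAAA. These matches describe letters in a window and say nothing of binding in these samples.

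Globin counts were few in every testis library. If reads that match both copies of a pair were dropped, the shares below are too low. The 4 adult globins together took 0.00664%, 0.00687% and 0.00813% of all counts in the wild-type libraries, 0.0128%, 0.00837% and 0.00845% in those labelled Gm1142 knockout, and 0.00834%, 0.0062% and 0.00654% in the double knockout, in the order of replicates 1 to 3. The highest library was GM1142KO-labelled replicate 1, at 0.0128% (exact Clopper-Pearson 95% interval 0.0118% to 0.0138%), and the lowest was double knockout replicate 2, at 0.0062% (0.00567% to 0.00675%), a ratio of 2.06 between them. These shares rest on 286 to 670 globin counts per library, and the intervals cover counting error only. Low counts favoured even values in all libraries, with a count of 2 found 2.10 to 2.56 times as often as a count of 1, so counts may not be independent of each other.

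After scaling library sizes by TMM, which sets the middle of all genes level across libraries, the summed globin level was 70.5 ± 7.81 CPM in wild type, 106 ± 20.9 CPM in the GM1142KO-labelled libraries and 67.4 ± 10.5 CPM in the double knockout (SD, n = 3 each). The GM1142KO-labelled libraries, at 90.5 to 130 CPM, lay above the wild-type libraries, at 63.6 to 79.0 CPM, and the double knockout libraries, at 58.4 to 79.0 CPM. As unscaled shares of all counts, wild type reached 0.00813% and the lowest GM1142KO-labelled library was 0.00837%, while double knockout replicate 1 at 0.00834% came closest to it. Without replicate 1, the mean share of the GM1142KO-labelled libraries was 0.00841% in place of 0.00987%. In bulk tissue, fewer red cells and less globin RNA per red cell cannot be told apart.

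The 7 genes spanned a wide range of levels per length. Over the 9 libraries, the mean per kilobase of exon was 38.6 CPM for Hbb-bs (28.0 to 66.0), 29.1 for Hba-a1 (19.4 to 45.7), 26.1 for Hba-a2 (14.2 to 41.6) and 15.3 for Hbb-bt (9.25 to 20.7). Neighbours among these 4 overlapped in their ranges. Fech followed at 6.44 CPM per kilobase (4.70 to 9.98), overlapping Hbb-bt, then Alas2 at 1.70 (0.656 to 2.42) and Slc4a1 at 0.0754 (0 to 0.264), and the ranges of Fech, Alas2 and Slc4a1 did not overlap. The length used is that of all annotated exons of a gene joined, which is 13838 bases for Fech and 703 to 812 for the globins except Hba-a2, with 667. The order of levels per kilobase depends on this length and, within a globin pair, on the uncertain split of counts. If reads that match both copies were dropped, the globin levels per kilobase are too low beside those of the other genes.

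**Figure D1:**
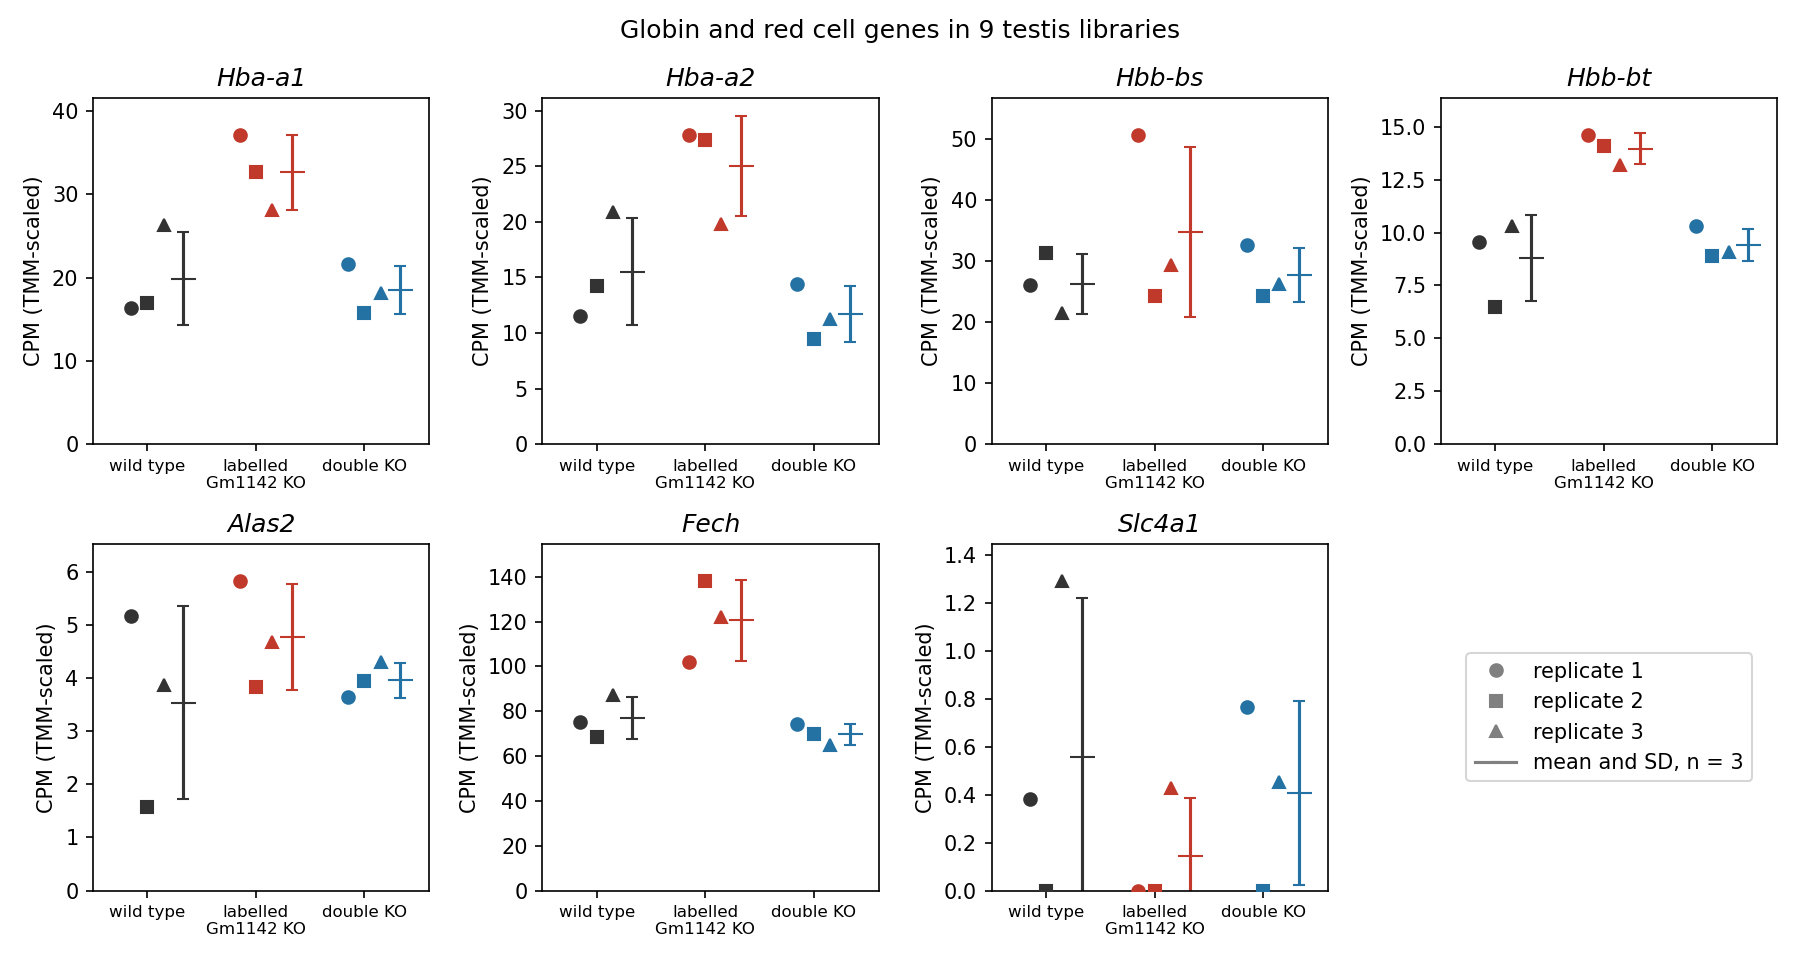
Level of each of the 7 genes in CPM on TMM-scaled library sizes (vertical axis, from 0 and on its own scale in each panel) in the 9 libraries, by group; symbols mark replicate numbers and bars the mean and SD of 3 libraries. For Hba-a1, Hbb-bt and Fech the 3 GM1142KO-labelled libraries lie above all wild-type and double knockout libraries, whereas Slc4a1 is at 0 in 4 libraries.

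Hba-a1 was higher in the GM1142KO-labelled libraries than in the other two groups. It stood at 16.3, 17.0 and 26.3 CPM in wild type, at 37.1, 32.7 and 28.1 CPM in the GM1142KO-labelled libraries, and at 21.6, 15.8 and 18.1 CPM in the double knockout. The lowest GM1142KO-labelled library was above the highest of the other 6. The log2 fold change against wild type was 0.72 (SE 0.22, 95% interval 0.27 to 1.18), with an adjusted p of 0.0236 by edgeR's quasi-likelihood test with Benjamini-Hochberg adjustment over 17251 genes. That call was lost without wild-type replicate 1 (adjusted p = 0.128), without wild-type replicate 2 (0.112) and without GM1142KO-labelled replicate 1 (0.089), and with plain library totals in place of TMM (log2 fold change 0.58, adjusted p = 0.0884).

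The second alpha gene, Hba-a2, was at 11.5, 14.2 and 20.9 CPM in wild type, 27.8, 27.4 and 19.8 CPM in the GM1142KO-labelled libraries, and 14.4, 9.48 and 11.3 CPM in the double knockout. Wild-type replicate 3 overlapped the GM1142KO-labelled libraries, and the double knockout lay below all 3 of them. Its log2 fold change was 0.69 (SE 0.25) in GM1142KO-labelled libraries against wild type, which missed the threshold in the fit over all libraries, with an edgeR adjusted p of 0.0598. It passed without wild-type replicate 3 (0.0249) and when the model held only the compared groups (0.0475).

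Hbb-bs, the more abundant beta gene, was at 26.2, 31.3 and 21.5 CPM in wild type, 50.7, 24.3 and 29.4 CPM in the GM1142KO-labelled libraries, and 32.7, 24.3 and 26.3 CPM in the double knockout. Replicate 1 labelled Gm1142 knockout was far above the other 8 libraries, whose values overlapped between groups. The log2 fold change against wild type was 0.41 (95% interval -0.08 to 0.90, edgeR adjusted p = 0.255), and 0.03 without that replicate.

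Hbb-bt was at 9.57, 6.50 and 10.3 CPM in wild type, 14.6, 14.1 and 13.2 CPM in the GM1142KO-labelled libraries, and 10.3, 8.91 and 9.06 CPM in the double knockout. The GM1142KO-labelled libraries lay above all others and close together. With 33 to 79 counts per library, its log2 fold change against wild type of 0.66 (95% interval 0.11 to 1.21) missed the threshold at an edgeR adjusted p of 0.0881.

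Alas2, the red cell form of the first heme enzyme, was near the limit of what 8 to 35 counts per library can show. It was at 5.17, 1.58 and 3.88 CPM in wild type, 5.83, 3.84 and 4.69 CPM in the GM1142KO-labelled libraries, and 3.64, 3.95 and 4.30 CPM in the double knockout. The groups overlapped, and the 95% interval of the log2 difference between GM1142KO-labelled libraries and wild type ran from -0.50 to 1.37 (edgeR adjusted p = 0.55).

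Fech, the last enzyme of the pathway, had the most counts of the 7 genes, 287 to 618 per library. It was at 75.4, 68.4 and 87.2 CPM in wild type, 102, 138 and 122 CPM in the GM1142KO-labelled libraries, and 74.4, 69.7 and 65.0 CPM in the double knockout. All 3 GM1142KO-labelled libraries were above the other 6. Fech rose by a log2 fold change of 0.65 (SE 0.14, 95% interval 0.35 to 0.94, edgeR adjusted p = 0.00286) against wild type, and the call held when each of the 9 libraries was left out in turn, with an adjusted p of at most 0.0289.

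Slc4a1, the anion exchanger that carries bicarbonate across the red cell membrane, did not reach the level needed for a test. It had 2, 0 and 6 counts in wild type, 0, 0 and 2 in the GM1142KO-labelled libraries, and 4, 0 and 2 in the double knockout, 16 in all. A count of 0 allows up to 3 counts, which is 0.338 CPM in the deepest library by scaled size and 0.767 CPM in the shallowest. No difference between groups was detectable at this depth.

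Of the set, 6 of the 7 genes passed the filter on low counts, and in the comparison of GM1142KO-labelled libraries with wild type, 2 of the 6, Hba-a1 and Fech, were called higher and none lower. Across all 17251 genes, 10.2% were called higher and 8.38% lower, 18.5% in either direction. The groups did not overlap for 3 of the 6, Hba-a1, Hbb-bt and Fech, all higher, against 35.9% of all genes in either direction, 18.7% higher and 17.2% lower. The median log2 fold change of the 6 was 0.66, beside -0.01 for all genes, and all 6 were above 0.

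Between double knockout and wild type, none of the 6 was called by edgeR, none had an unadjusted p under 0.05, and DESeq2 called none. In that comparison 0.0927% of all genes were called, 0.0464% in each direction. Their adjusted p ran from 0.663, for Hba-a2, to 0.957, for Hbb-bs, and the groups overlapped for all 6, where 15.9% of all genes had groups apart, 8.28% higher and 7.57% lower. The 95% intervals of the log2 differences show what the data leave possible: -0.56 to 0.36 for Hba-a1, -0.95 to 0.13 for Hba-a2, -0.42 to 0.56 for Hbb-bs, -0.46 to 0.65 for Hbb-bt, -0.78 to 1.09 for Alas2 and -0.44 to 0.16 for Fech. The median was -0.02 for the 6 and 0.02 for all genes.

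Between the double knockout and the GM1142KO-labelled libraries, 3 of the 6 were called lower, in a comparison where 10.1% of all genes were called lower, 9.07% higher and 19.1% in either direction. On the log2 scale and by edgeR, Hba-a2 fell by 1.10 ± 0.25 (SE; adjusted p = 0.00436), Hba-a1 fell by 0.83 ± 0.22 (adjusted p = 0.0107) and Fech fell by 0.79 ± 0.14 (adjusted p = 0.000574). The Hba-a1 call was lost without double knockout replicate 2 (edgeR adjusted p = 0.0653). Hbb-bt had a log2 difference of -0.57 (adjusted p = 0.138) with groups that did not overlap, Hbb-bs -0.34 (0.337) and Alas2 -0.28 (0.705). In all, groups did not overlap for 4 of the 6, all lower, against 33.4% of all genes, 17.1% lower and 16.3% higher. The 2 comparisons with the GM1142KO-labelled libraries share those 3 libraries, so they are not separate evidence of their level.

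**Figure D2:**
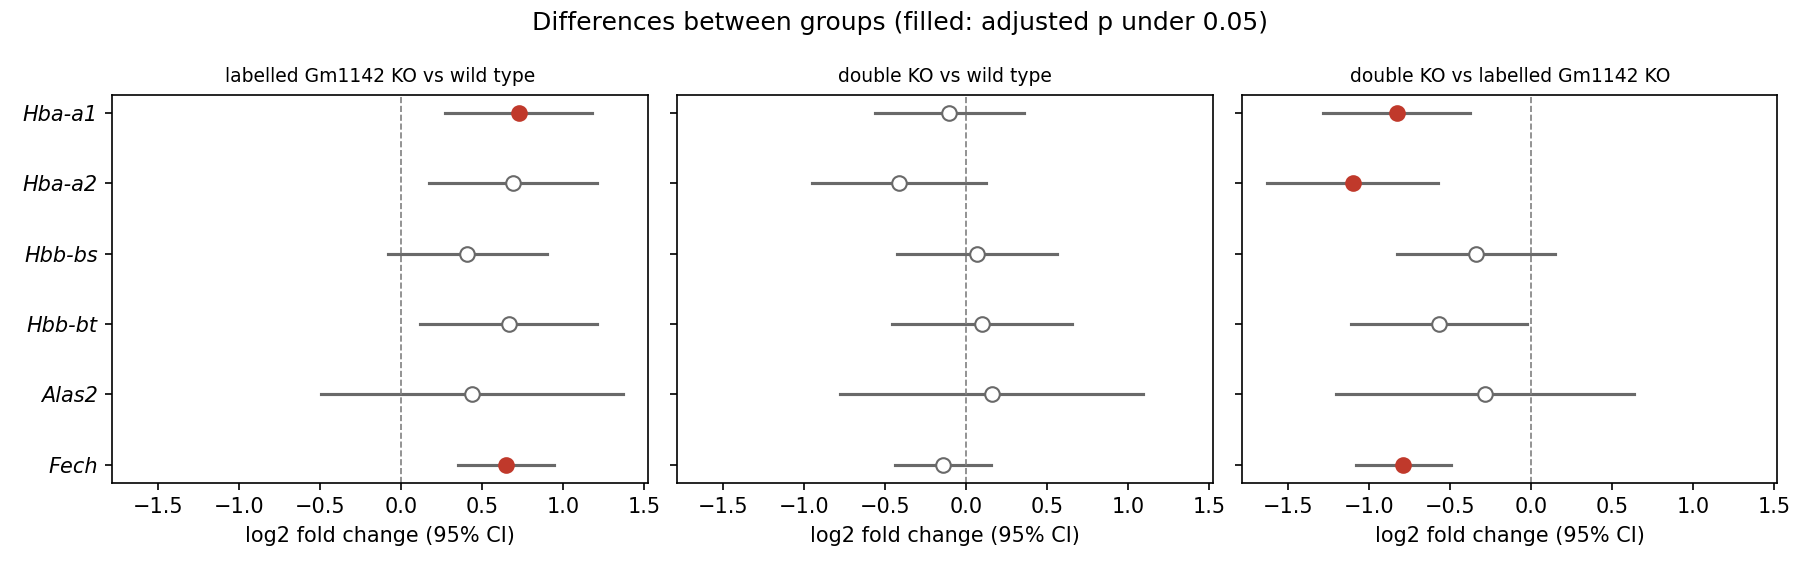
Log2 fold change (point) and 95% interval (line) of the 6 tested genes in each of the 3 comparisons, from edgeR; filled points have an adjusted p under 0.05. Hba-a1 and Fech are filled in the first panel, no gene in the second, and Hba-a1, Hba-a2 and Fech in the third.

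The share of alpha chains among globin counts ran from 43.2% to 61.0% over the 9 libraries. The intervals cover counting error only and may be too narrow, given the even counts. The share would also be shifted if reads that match both copies of a pair were dropped, as the 2 pairs share different parts. Alpha counts were 43.7% of globin counts in wild-type replicate 1 (exact 95% interval 38.3% to 49.2%), 45.1% in replicate 2 and 59.7% in replicate 3 (54.5% to 64.7%). In the GM1142KO-labelled libraries they were 49.9%, 61.0% (56.0% to 65.9%) and 52.9%, and in the double knockout 45.5%, 43.2% and 45.5%. The double knockout libraries lay close together, with an alpha to beta ratio of 0.81 ± 0.0419, whereas wild type, at 1.03 ± 0.394, held both low libraries and 1 high library (SD, n = 3 each).

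Within the alpha pair, the count of Hba-a1 was 1.42, 1.19 and 1.26 times that of Hba-a2 in wild type and 1.34, 1.2 and 1.42 times in the GM1142KO-labelled libraries. In the double knockout it was 1.51, 1.67 and 1.6 times, above all 6 other libraries. This ratio was not tested, and it rests on a split of reads that 1 coding base and the untranslated ends decide. Within the beta pair, Hbb-bs exceeded Hbb-bt 1.73-fold to 4.82-fold, with overlapping groups.

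**Figure D3:**
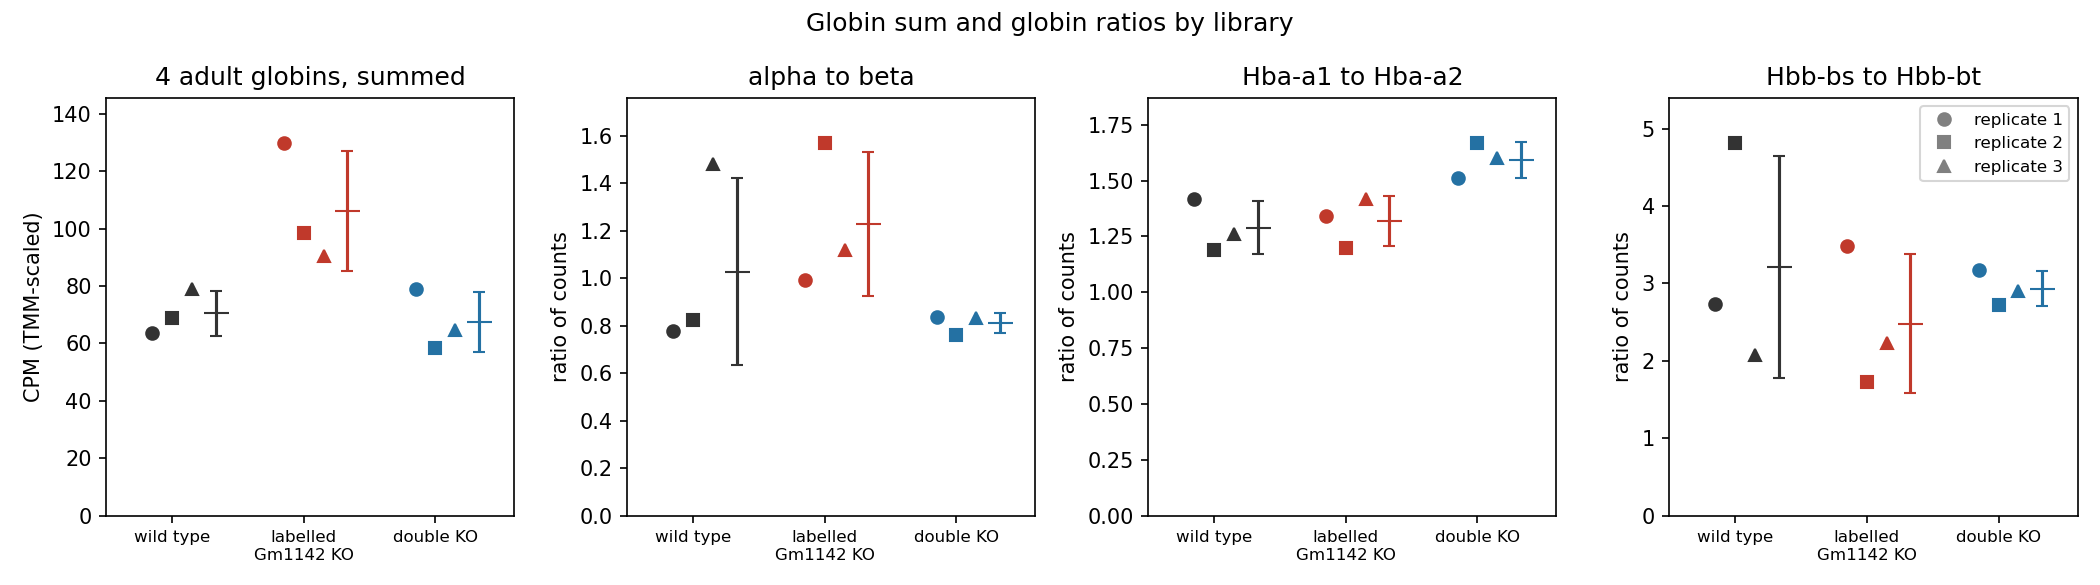
Summed level of the 4 adult globins in CPM, and ratios of counts of alpha to beta, Hba-a1 to Hba-a2 and Hbb-bs to Hbb-bt, by library (symbols for replicates, bars for the mean and SD of 3 libraries, vertical axes from 0). The sum is highest in the GM1142KO-labelled libraries, and the Hba-a1 to Hba-a2 ratio is highest in the double knockout, at 1.51 to 1.67.

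Across the 9 libraries, which share their scaling and differ in group, the log2 levels of Hba-a1 and Hba-a2 had a Pearson correlation of 0.96, and 0.96 again after each group's mean was taken off. That value includes any reads counted for the wrong copy. Hba-a1 and Hbb-bt had 0.88, and 0.63 within groups. Hbb-bs was less like the rest, at 0.41 with Hba-a1 and 0.30 with Hbb-bt, and 0.12 and -0.16 within groups. Fech had 0.85 with Hba-a1 but 0.33 within groups, and 0.10 with Hbb-bs but -0.78 within groups. These are descriptions over 9 libraries.

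The adult globins make up the sum and were left out when naming the genes most like it, although Hba-a1 (Pearson r = 0.957) and Hba-a2 (0.927) were among the highest. The 10 other named genes whose log2 level was most like the summed globin level over the 9 libraries, of 13638 ranked, were Cnpy3 (Pearson r = 0.961), Matn2, an extracellular matrix protein (0.955), Gigyf1 (0.946), Agpat2, an enzyme of phospholipid synthesis (0.946), Spin2c (0.944), Inpp5d, an inositol phosphatase of blood cells (0.943), Bscl2, the lipid droplet protein seipin (0.938), Ubp1 (0.937), Trim3 (0.934) and Lin7b (0.933). Cnpy3 stood at 27.5 ± 0.935 CPM in wild type, 46.1 ± 7.94 CPM in the GM1142KO-labelled libraries and 28.5 ± 3.84 CPM in the double knockout (SD, n = 3 each). Of the other members tested, Hbb-bt had a correlation of 0.813 with the globin sum, Fech 0.756 (-0.131 for deviations from the group means) and Alas2 0.354. Hbb-bs had 0.644, and -0.129 without the 2 libraries farthest from the median of the sum, GM1142KO-labelled replicate 1 and double knockout replicate 2.

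Other globins were nearly absent. The embryonic genes Hba-x, Hbb-y, Hbb-bh1 and Hbb-bh2 had 0 counts in all 9 libraries, Hbq1a had 1 count in all and Hbq1b had 2 to 7 counts per library. Among the 33 listed genes of the red cell membrane and of late red cell development, 11 stayed under 10 counts in every library. They include the membrane proteins Epb42, Rhag, Kel and Ermap besides Slc4a1, and the late genes Car1, Trim58, Tspo2, Isg20, Hemgn and Slc14a1. These 11 together had 7 to 31 counts per library, 171 in all, beside 3746 for the 4 adult globins. By group they had 64 raw counts in wild type, 48 in the GM1142KO-labelled libraries and 59 in the double knockout, not scaled for library size. The 11 were picked for low counts in every library, so these sums cannot compare red cell content between groups.

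The enzymes of heme synthesis did not move as a block. Of 8 enzymes, all tested, Fech rose and 2 fell in the GM1142KO-labelled libraries against wild type, with a median log2 fold change of -0.05, beside -0.01 for all genes. Of all genes, 10.2% were called higher and 8.38% lower. The 2 that fell were Cpox and Uros, from the later and middle steps of the pathway.

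Cpox, the mitochondrial coproporphyrinogen oxidase, fell from 31.2, 23.9 and 23.5 CPM in wild type to 16.7, 12.5 and 13.0 CPM in the GM1142KO-labelled libraries (a log2 difference of -0.89 ± 0.21, SE; adjusted p = 0.00428 by edgeR). Uros, which closes the porphyrin ring, fell from 17.0, 16.4 and 25.0 CPM to 12.4, 11.5 and 11.5 CPM (a log2 difference of -0.71 ± 0.23, SE; adjusted p = 0.0332 by edgeR). In neither gene did the groups overlap. The Cpox call held whichever library was left out, and the Uros call was lost with no filter (adjusted p = 0.0532) and without wild-type replicate 3 or any 1 of the GM1142KO-labelled libraries (0.0548 to 0.193). Alas1, the general form of the first enzyme, was at 80.5 ± 29.3 CPM in wild type and 54.0 ± 17.5 CPM in the GM1142KO-labelled libraries (SD, n = 3 each; log2 fold change -0.59, 95% interval -1.21 to 0.04).

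None of the 8 enzymes was called between double knockout and wild type by edgeR or DESeq2, and 1, Ppox, had an unadjusted p under 0.05. Ppox, protoporphyrinogen oxidase, had the highest CPM of the list. Its log2 difference was -0.39 (95% interval -0.68 to -0.10, edgeR adjusted p = 0.42). Between the double knockout and the GM1142KO-labelled libraries, Cpox (0.87, edgeR adjusted p = 0.00529) and Uros (0.73, edgeR adjusted p = 0.0281) rose on the log2 scale and Fech fell. The Uros call was lost without GM1142KO-labelled replicate 2 or 3, or double knockout replicate 1 or 3 (adjusted p 0.0615 to 0.0825).

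**Figure D4:**
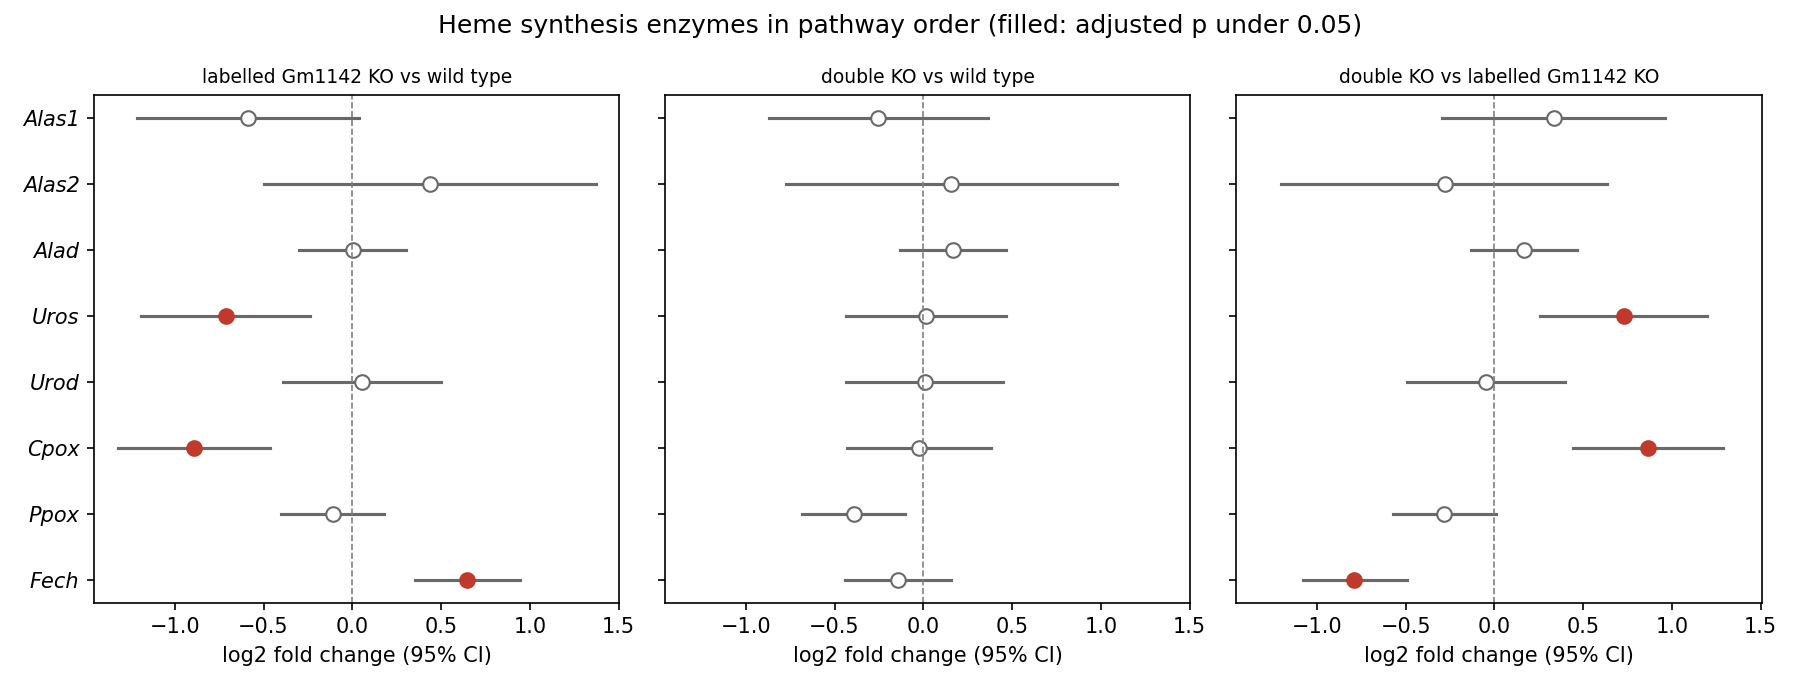
Log2 fold change (point) and 95% interval (line) of 8 heme synthesis enzymes, from the first step at the top to the last at the bottom, in each of the 3 comparisons, from edgeR; filled points have an adjusted p under 0.05. In the first panel Fech is filled to the right of 0, and Uros and Cpox to the left.

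Of 13 genes of iron and heme transport and heme breakdown, 1 was called in the GM1142KO-labelled libraries against wild type: Ftl1, the ferritin light chain, rose by a log2 fold change of 0.44 (edgeR adjusted p = 0.0473), a call lost without any 1 of the wild-type or GM1142KO-labelled libraries or double knockout replicate 2 (adjusted p 0.0566 to 0.201), with no filter (0.0775), with plain library totals (0.215) and with totals that leave out mitochondrial genes (0.0769). DESeq2 called 3 of the 13. By edgeR, 18.5% of all genes were called in that comparison. Between the double knockout and the GM1142KO-labelled libraries, Ftl1 fell by 0.62 on the log2 scale (edgeR adjusted p = 0.00688, and 0.0539 with plain library totals) and Tfrc, the transferrin receptor, rose by 0.72 (edgeR adjusted p = 0.0131), the latter lost without GM1142KO-labelled replicate 2 (0.0533) or double knockout replicate 2 (0.139). Fth1, the ferritin heavy chain, had the highest level of the list, at 88.1 ± 6.37, 104 ± 20.1 and 102 ± 21.2 CPM in wild type, GM1142KO-labelled libraries and double knockout (SD, n = 3 each). None of the 13 was called between double knockout and wild type by edgeR or DESeq2, and none had an unadjusted p under 0.05.

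Of 17 red cell membrane and cytoskeleton genes, 11 were tested. Xk, a membrane protein tied to the Kell antigen, fell by 1.84 on the log2 scale in the GM1142KO-labelled libraries against wild type (edgeR adjusted p = 0.0153), a call lost without wild-type replicate 1 (0.0547), wild-type replicate 2 (0.0838) or GM1142KO-labelled replicate 1 (0.064). The spectrin gene Sptb had the highest level of this list, at 125 ± 7.06, 133 ± 26.0 and 115 ± 1.52 CPM in wild type, GM1142KO-labelled libraries and double knockout (SD, n = 3 each). Spectrins and many other listed membrane genes are also made outside red cells. Of 16 red cell enzymes and late genes, 7 were tested and edgeR and DESeq2 called none in any comparison, with 1, 0 and 1 at an unadjusted p under 0.05 in GM1142KO-labelled libraries against wild type, double knockout against wild type and double knockout against GM1142KO-labelled libraries. Bnip3l, a mitophagy receptor, had the highest level of this list, at 67.8 ± 5.03, 89.8 ± 3.79 and 81.1 ± 16.4 CPM in wild type, GM1142KO-labelled libraries and double knockout (SD, n = 3 each).

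Among 9 erythroid transcription factors and the erythropoietin receptor, counted together, 5 were tested. Ldb1, a widely made cofactor of the erythroid GATA complex, rose by a log2 fold change of 0.49 in the GM1142KO-labelled libraries against wild type (edgeR adjusted p = 0.00712). Gata1, a master factor of red cells that Sertoli cells also make, fell by 1.66 (edgeR adjusted p = 0.0237), from 5.76 ± 3.73 CPM to 1.81 ± 0.12 CPM (SD, n = 3 each). That call was lost without wild-type replicate 1 (log2 fold change -1.01, adjusted p = 0.236) or GM1142KO-labelled replicate 3 (adjusted p = 0.0723). Gata1 rose by 1.89 in the double knockout against the GM1142KO-labelled libraries (edgeR adjusted p = 0.0103), lost without double knockout replicate 2 (0.0626), and Ldb1 fell by 0.58 (edgeR adjusted p = 0.00208).

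Markers of other cells that blood or vessels would bring gave mixed values. The summed level of 8 platelet markers was 16.8 to 27.0 CPM in wild type, 29.1 to 38.4 CPM in the GM1142KO-labelled libraries and 11.6 to 19.9 CPM in the double knockout. Ppbp and Gp1bb were at 0 in all libraries, and 3 more stayed under 10 counts in every library. In the same order of groups, Pf4 stood at 4.74 ± 2.54, 7.62 ± 1.51 and 4.63 ± 1.88 CPM, and Gp1ba at 1.75 ± 0.205, 3.96 ± 0.584 and 1.76 ± 0.798 CPM (SD, n = 3 each). Of the 3 tested, edgeR and DESeq2 called none in the GM1142KO-labelled libraries against wild type, with 2 at an unadjusted p under 0.05, and Itga2b, an integrin of platelets, fell by 1.27 in the double knockout against the GM1142KO-labelled libraries (edgeR adjusted p = 0.00193). Of 9 neutrophil markers, Elane and Retnlg were at 0 in all libraries and 6 more stayed under 10 counts in every library. Lcn2, the only neutrophil marker tested, fell by 1.57 in the double knockout against the GM1142KO-labelled libraries (edgeR adjusted p = 0.00206). The summed neutrophil level was 13.2 to 16.6, 12.2 to 16.9 and 3.95 to 8.99 CPM in wild type, GM1142KO-labelled libraries and double knockout. Lcn2 made up most of this sum in every group, so the sum mainly follows Lcn2. From wild type to GM1142KO-labelled libraries, mean S100a8 went from 0.924 to 0.341 CPM, S100a9 from 0.873 to 0.17 and Ngp from 0.814 to 0.142. Ltf was also lower, Camp was slightly higher (1.15 and 1.25 CPM) and Mpo was at 0 in both groups. These scarce markers were not tested.

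Of the 9 lymphocyte markers, 3 were tested and none was called in any comparison by edgeR or DESeq2, nor at an unadjusted p under 0.05, with summed levels of 50.5 to 67.8, 59.0 to 68.5 and 44.0 to 86.5 CPM in wild type, GM1142KO-labelled libraries and double knockout. Ighm, the immunoglobulin mu heavy chain, was the highest of them, at 32.8 ± 4.76, 35.5 ± 5.3 and 31.3 ± 10 CPM (SD, n = 3 each). The 10 macrophage and monocyte markers were summed to 69.3 to 80.4 CPM in wild type and 53.7 to 59.0 CPM in the GM1142KO-labelled libraries, with 63.1 to 84.2 CPM in the double knockout. Mrc1, the macrophage mannose receptor, was the highest of these, at 23.5 ± 3.42, 14.8 ± 4.45 and 20.5 ± 2.46 CPM in wild type, GM1142KO-labelled libraries and double knockout (SD, n = 3 each). Of 8 tested, the chemokine receptors Ccr2 (log2 fold change -2.50, edgeR adjusted p = 0.0182) and Cx3cr1 (-1.48, edgeR adjusted p = 0.0367) fell in the GM1142KO-labelled libraries against wild type, and both calls are fragile to single libraries. That of Ccr2 was lost without wild-type replicate 1 or 3 or GM1142KO-labelled replicate 1 (adjusted p 0.059 to 0.0695), and that of Cx3cr1 without wild-type replicate 1 or 2 or GM1142KO-labelled replicate 2 or 3 (0.0573 to 0.209). Of all genes, 8.38% were called lower in the GM1142KO-labelled libraries against wild type. Not all 8 macrophage and monocyte markers fell. Groups did not overlap for 3 lower and 1 higher, beside 17.2% and 18.7% of all genes. Csf1r stood at 10.6 ± 1.41 CPM in wild type and 14.8 ± 1.45 CPM in the GM1142KO-labelled libraries, and Cd68 at 10.5 ± 0.968 and 10.4 ± 2.61 CPM (SD, n = 3 each). The 10 endothelial markers summed to 184 to 222, 160 to 277 and 149 to 194 CPM in wild type, GM1142KO-labelled libraries and double knockout. None of these 10 was called in the GM1142KO-labelled libraries against wild type by edgeR or DESeq2, nor at an unadjusted p under 0.05. In the double knockout against those libraries Egfl7 fell by 0.71 (edgeR adjusted p = 0.00436), Vwf fell by 1.24 (edgeR adjusted p = 0.0246) and Kdr rose by 0.88 (edgeR adjusted p = 0.0225). In that comparison 10.1% of all genes were called lower and 9.07% higher. The Vwf call was lost with plain library totals (0.0562) and without GM1142KO-labelled replicate 1 or double knockout replicate 1 or 2 (0.0602 to 0.147), and that of Kdr without GM1142KO-labelled replicate 2 (0.105) or double knockout replicate 1 (0.102). With totals that leave out mitochondrial genes, the log2 fold change of GM1142KO-labelled libraries against wild type was 0.68 for Hba-a1 (edgeR adjusted p = 0.0362) and 0.60 for Fech (edgeR adjusted p = 0.00434). The part of platelets and vessels in the globin difference was not tested.

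Markers of the testis itself also differed between the groups. Of 10 listed, 9 were tested, and 1 rose and 3 fell in the GM1142KO-labelled libraries against wild type. Of all genes, 10.2% were called higher and 8.38% lower in that comparison. Sox9, a Sertoli cell transcription factor, stood at 51.8 ± 3.76, 18.5 ± 6.23 and 44.0 ± 13.7 CPM in wild type, GM1142KO-labelled libraries and double knockout, and Cyp17a1, a steroid enzyme of Leydig cells, at 123 ± 66.2, 20.2 ± 16.7 and 88.5 ± 56.5 CPM (SD, n = 3 each). In the GM1142KO-labelled libraries against wild type, Sox9 had a log2 fold change of -1.47 (edgeR adjusted p = 0.000156), Cyp17a1 of -2.64 (0.00162), Dazl of -0.66 (0.00208) and Wt1 of 0.46 (0.00584). Between double knockout and wild type Dazl alone of the 9 was called, at 0.83 (edgeR adjusted p = 0.0069), and the call was lost without wild-type replicate 1 (0.167), wild-type replicate 3 (0.114) or double knockout replicate 2 (0.0608). In the double knockout against the GM1142KO-labelled libraries 4 rose and 1 fell, where 9.07% of all genes were called higher and 10.1% lower. Among them were Dazl at 1.49 (edgeR adjusted p = 3.94e-07), Sox9 at 1.25 (0.000781), Wt1 at -0.50 (0.0035) and Cyp17a1 at 2.15 (0.00797, and 0.0634 with DESeq2). The part of these testis cell markers in the globin and Fech differences was not tested.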

How the data were processed

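Polyadenylated RNA of 9 mouse testis libraries was measured as raw counts per gene, which the authors deposited in 1 table with 1 column per library. Per the submitters' processing notes, cutadapt, Bowtie2, STAR and featureCounts were used with build mm39. Versions, strand setting, annotation release, read length and whether reads or fragments were counted are not given in the sources used here. Without strand, reads of an antisense gene cannot be told apart. Symbols for 52073 of 56691 genes and exon lengths came from GENCODE M21 (GRCm38), and promoters from RefSeq.

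Groups follow the sample titles. Counts were fitted in R 4.3.3 with edgeR 4.0.16: filterByExpr at its defaults (a count of 10 at least, a total of 15 at least) kept 17251 genes, with TMM factors of 0.856 to 1.07, and the quasi-likelihood model gave each group its own term over the 9 libraries. The Benjamini-Hochberg adjustment ran over all genes of a comparison, with calls at an adjusted p under 0.05. The SE is the log2 fold change divided by the square root of F. The steps were tested on simulated data. DESeq2 1.42.0, other scalings and filters, a replicate term and the loss of each library served as alternatives. Correlations used log2(CPM + 0.5), for genes with a mean of at least 1 CPM.

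The members and the 13 gene lists (132 symbols used, 129 matched) were chosen with earlier results of these data known. Some items were left out and are not reported here. From each list the text names called genes, at most 4 per list and comparison, and the gene with the highest mean CPM, and of the globin-like genes the 10 highest. Outside that rule, Alas1, Csf1r, Cd68, Pf4, Gp1ba, the genes at 0 or under 10 counts, and the targeted genes were named after their values were seen. Library depth was 4370124 to 8359594 counts. Replicates of a group differed by more than counting noise (chi-square per degree of freedom 3.82 to 11), so none was a repeat deposit.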

Additional observations from a re-analysis of the deposited data

How the results depend on the processing

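Among the 6 tested genes, the Fech calls in the 2 comparisons with the GM1142KO-labelled libraries held in all alternatives run. So did the Hba-a2 call between double knockout and GM1142KO-labelled libraries, although the split of its counts from Hba-a1 is uncertain. For the GM1142KO-labelled libraries against wild type, 2 genes were called in the report, 1 with plain library totals, and 1 to 3 when each library was left out. Plain totals, chosen after seeing the data, moved the median log2 fold change of all genes by -0.149 and the share of calls that were higher from 54.8% to 33.8%. For the double knockout against the GM1142KO-labelled libraries, they moved the median by 0.177 and that share from 47.4% to 71.5%, and the same number of the 6 genes, 3, was called. Leaving out a library turned the sign of differences that were not called: for double knockout against wild type, Hba-a1 ranged from -0.244 to 0.15, Hbb-bs from -0.0821 to 0.21, Hbb-bt from -0.078 to 0.228 and Alas2 from -0.195 to 0.545, and for the double knockout against the GM1142KO-labelled libraries, Hbb-bs ranged from -0.546 to 0.0415.

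Over all genes, calls between double knockout and wild type numbered 16, against 110 with no filter, 28 with only the compared groups in the model, 63 with DESeq2 and 9 to 45 without a library. The lowest came without wild-type replicate 1, the highest without GM1142KO-labelled replicate 2, and without double knockout replicate 1 there were 32. Calls between GM1142KO-labelled libraries and wild type ranged from 2037 without wild-type replicate 1 to 3380 (3196 with all libraries), and those between double knockout and GM1142KO-labelled libraries from 2128 without double knockout replicate 2 to 3219 (3301 with all libraries). With mitochondrial genes left out of the total, the globin share was 0.0104% in wild type, 0.0152% in GM1142KO-labelled libraries and 0.01% in the double knockout. The cause of these shifts was not tested, beyond the smaller denominator in the last.

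Same-numbered libraries did not deviate together (correlations of -0.267 to 0.101 over 9 pairs), so no pairing by replicate number was seen. Such correlations cannot exclude a shared litter or batch, which the labels do not give. With the replicate block, 2921, 16 and 2965 genes were called in the 3 comparisons in the order above of GM1142KO-labelled libraries against wild type, double knockout against wild type, and double knockout against GM1142KO-labelled libraries, and no call among the 6 genes changed. Depth limits Slc4a1 and Alas2 most.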
